A study of Mus musculus with 14 samples.

Results

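The clustered protocadherins are cell-surface adhesion proteins encoded by 3 neighbouring gene arrays, called alpha, beta and gamma. All symbols of the Pcdha, Pcdhac, Pcdhb, Pcdhga, Pcdhgb and Pcdhgc series were taken, which gave 59 of the 24340 genes listed per library. Of these, 15 belong to the alpha cluster, 22 to the beta cluster and 22 to the gamma cluster. On the GRCm38 mouse genome the clusters lie in a row on chromosome 18. The alpha cluster spans positions 36930285 to 37188897, the beta cluster 37264998 to 37521419 and the gamma cluster 37661775 to 37841873.

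In neurons each cell expresses a small, largely random set of these genes, and their proteins bind only to identical sets on other cells, so that a neuron recognises its own branches. Each alpha or gamma gene has its own promoter and large first exon, which is spliced to short constant exons shared by the whole cluster, whereas beta genes have a single variable exon and no shared ones. The 5 C-type genes at the 3' ends (Pcdhac1, Pcdhac2, Pcdhgc3, Pcdhgc4 and Pcdhgc5) are regulated differently from the others, and some of them are expressed in a constitutive way. The silent promoters carry DNA methylation and methylation of histone H3 at lysine 9 (H3K9), and the active ones bind CTCF and cohesin.

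RNA came from male germ cells of C57BL/6 mouse testes, in 14 libraries that form 7 groups of 2. The targeted genes, Jmjd1a (symbol Kdm3a) and Jmjd1b (symbol Kdm3b), encode demethylases of H3K9. Samples from postnatal day 3 (P3) were wild type (P3 WT), Vasa-Cre with Jmjd1a -/+ and Jmjd1b -/+ (P3 Ctrl), Vasa-Cre with Jmjd1a -/- and Jmjd1b -/+ (P3 Jmjd1aKO), Vasa-Cre with Jmjd1a -/+ and Jmjd1b -/- (P3 Jmjd1bKO), and Vasa-Cre with Jmjd1a -/- and Jmjd1b -/- (P3 DKO). At day 7 (P7) there were Vasa-Cre controls of the P3 Ctrl genotype (P7 Ctrl) and Vasa-Cre double knockouts (P7 DKO). Every control except P3 WT therefore carried the Cre and had lost 1 allele of each gene, and deletion rested on a driver that is active in the germ line. The labels do not say whether the 2 libraries of a group came from separate animals, so the spread behind every p-value here is that between libraries and may be technical.

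The targeted transcripts followed the labels. Kdm3a lay at 7.59 to 14.3 RPKM in the 6 libraries labelled Jmjd1a -/-, at 25.4 to 28.4 in the 6 labelled Jmjd1a -/+ and at 44.1 and 45.2 in P3 WT. RPKM correct read numbers for transcript length and for sequencing depth. Kdm3b lay at 4.26 to 7.51 RPKM in the 6 libraries labelled Jmjd1b -/-, at 9.81 to 17.3 in the 6 labelled Jmjd1b -/+ and at 26.9 in both P3 WT libraries. The depth estimated from the steps between RPKM values ran from 13.5 M (mega) fragments in P3 WT replicate 1 to 49.2 M in P3 DKO replicate 2, so 1 fragment of a 3 kb transcript was worth 0.0247 RPKM in the shallowest library and 0.00678 in the deepest. The 5 germ cell markers, Ddx4 and Dazl among them, summed to 1108 to 1495 RPKM per library. Replicate 2 of P3 Jmjd1aKO and of P3 Jmjd1bKO stood apart, with 376 and 469 RPKM over 8 Sertoli cell markers against 34.5 to 89.1 elsewhere, and with 70.6 and 73.4 RPKM over 8 stromal markers against 6.19 to 22.3.

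The 59 genes were expressed very unequally, and nearly all of their RNA came from the gamma cluster. The gamma genes made up 88.3 to 99.1% of the summed RPKM of the 3 clusters in every library. In the alpha cluster only Pcdhac2 was above 0 in all 14 libraries, 13 of the 15 genes never reached 0.05 RPKM, and 6 were listed at 0 throughout. In the beta cluster no gene exceeded 0.119 RPKM in any library. In the gamma cluster 9 of the 22 genes reached 1 RPKM in at least 1 library. Genes were tested if 2 or more of the 14 libraries reached 1 RPKM, and 8 of the 59 did so: Pcdhac2, Pcdhgb6, Pcdhga10, Pcdhgb7, Pcdhga11, Pcdhga12, Pcdhgc3 and Pcdhgc5. Of these 8, only Pcdhgc3 and Pcdhgc5 reached 1 RPKM outside the P3 libraries that carry the Cre. The other 6 passed through libraries in which they were high, so their being lower in P3 WT or at P7 is in part set by the filter. Pcdhac2, Pcdhgb6 and Pcdhga11 would not have been tested without the P3 DKO libraries, so their being higher in P3 DKO than in other groups is in part set by it as well.

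**Figure D1:**
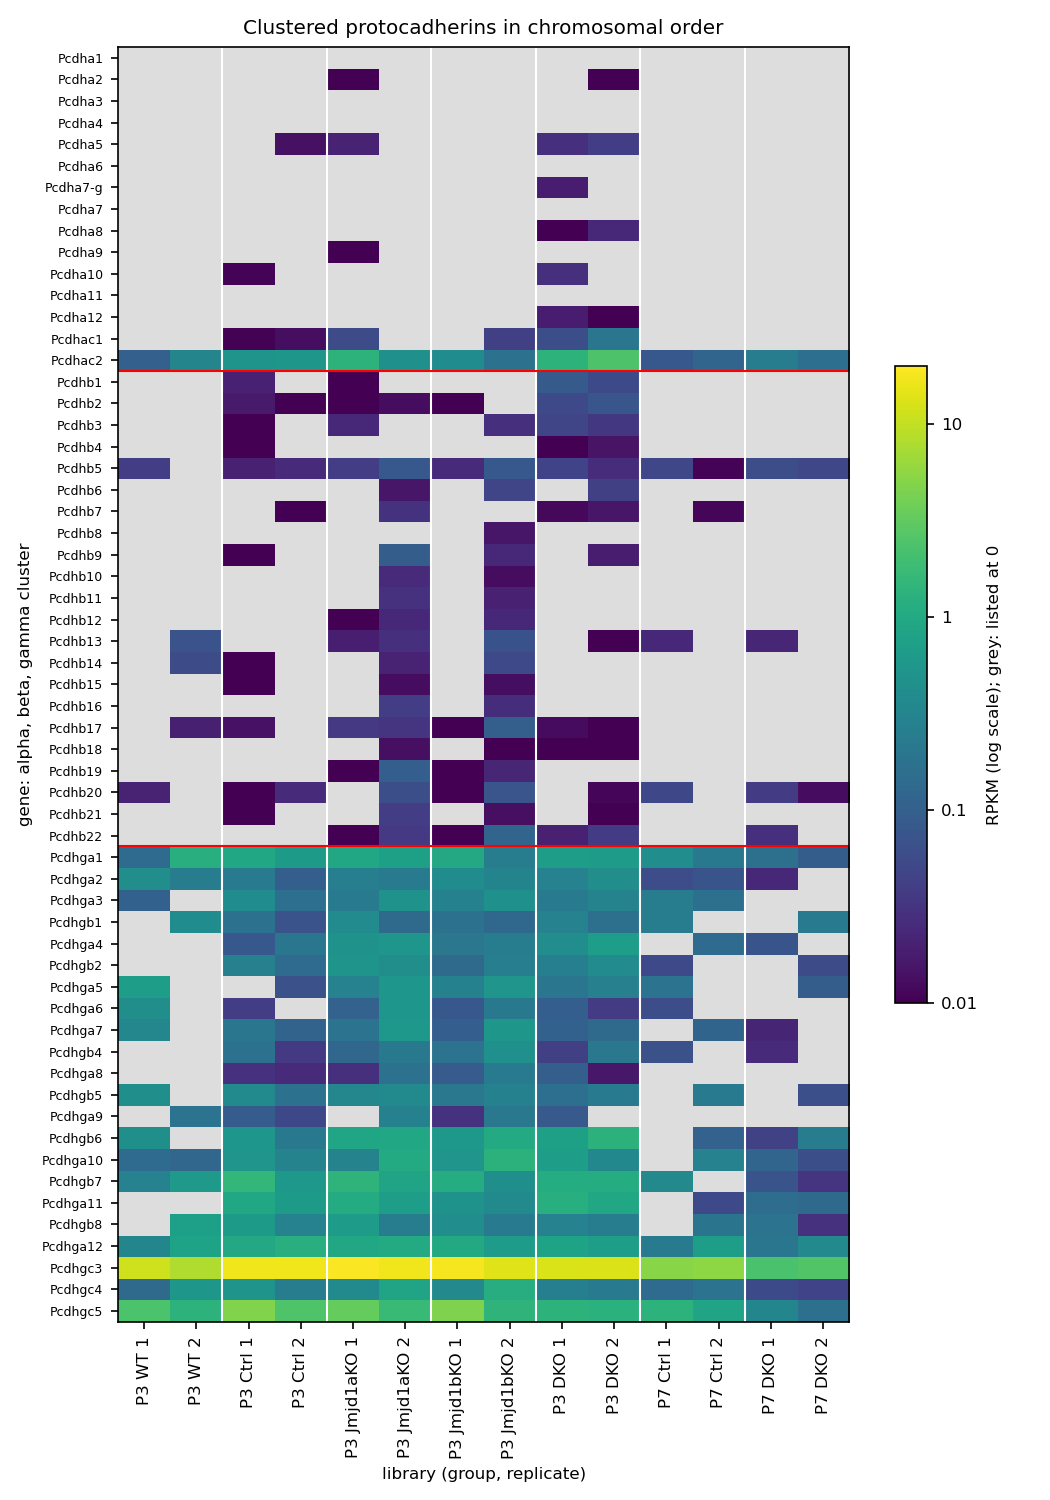
Level of all 59 clustered protocadherin genes (rows, in chromosomal order) in the 14 libraries (columns) as RPKM on a log colour scale, with grey for genes listed at 0 and values under 0.01 drawn in the colour of 0.01. Red lines part the alpha, beta and gamma clusters. Pcdhgc3 is the brightest row in every library, Pcdhac2 is the only alpha gene coloured throughout, and Pcdhb8 to Pcdhb22 are mostly coloured in replicate 2 of P3 Jmjd1aKO and P3 Jmjd1bKO.

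Pcdhgc3, a C-type gene of the gamma cluster, was the most abundant of the 59 genes in every library. Its level was 11.6 and 8.07 RPKM in P3 WT, 16.9 and 16.9 in P3 Ctrl, 19.1 and 16.8 in P3 Jmjd1aKO, 17.9 and 13.7 in P3 Jmjd1bKO, 13.0 and 13.3 in P3 DKO, 5.23 and 5.45 in P7 Ctrl, and 2.28 and 2.54 in P7 DKO. All 10 libraries of day 3 lay above all 4 of day 7, and both P7 DKO libraries lay below both P7 Ctrl libraries. Ordered by mean, P3 Jmjd1aKO, P3 Ctrl and P3 Jmjd1bKO came first with overlapping libraries, followed by P3 DKO, P3 WT, P7 Ctrl and P7 DKO, each of whose libraries lay below those of the group before it.

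In P7 DKO against P7 Ctrl, Pcdhgc3 fell from 5.34 ± 0.155 to 2.41 ± 0.179 RPKM (mean ± SD, n = 2), a 2.22-fold difference. On the log2(RPKM + 1) scale used for all tests the change was -0.90 ± 0.17 (SE), with an adjusted p of 0.00316 in limma. It was the only 1 of the 8 tested genes past the threshold of 0.05, while 16.1% of all 14772 tested genes were called lower and 17.4% higher in this comparison. The median change of the 8 genes was -0.10, against 0.02 for all tested genes. The call held in all 12 alternative fits, with adjusted p from 0.00138 to 0.0283. Among the genes below the filter, 18 had a value in P7 DKO or P7 Ctrl. Of these, 4 gamma genes (22.2%) were lower in both P7 DKO libraries than in both P7 Ctrl libraries and none was higher, where 20% of all such genes were lower and 17.6% higher.

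Sums over markers of endothelial and of stromal cells were also lower in P7 DKO than in P7 Ctrl. The 7 endothelial markers, all of which reached 1 RPKM somewhere, summed to 8.60 and 8.55 RPKM in P7 Ctrl and to 1.88 and 1.51 in P7 DKO, where Emcn and Esam were each listed at 0 in replicate 2. Pecam1, Cdh5, Kdr, Tie1 and Emcn were lower in both P7 DKO libraries, and Cldn5 and Esam overlapped. The 8 stromal markers, of which 7 reached 1 RPKM somewhere, summed to 19.1 and 19.1 in P7 Ctrl and to 6.84 and 6.19 in P7 DKO. The lower stromal sum came from Col1a1 and Pdgfra. Col1a2 and Myh11 were higher in both P7 DKO libraries than in both P7 Ctrl libraries, and Col3a1, Dcn, Lum and Acta2 overlapped. Over the 10 markers of neurons and glia the sums overlapped, at 16.4 and 13.7 in P7 Ctrl and 11.8 and 18.8 in P7 DKO. Within them Rbfox3, Snap25 and Sox10 were lower in both P7 DKO libraries, Map2, Syp and Gfap were higher, and the rest overlapped. The sums over the Sertoli, Leydig and leukocyte markers overlapped as well. Of the Sertoli markers Rhox5 and Cldn11 were lower in both P7 DKO libraries, Amh and Gata4 were higher, and the rest overlapped. The part of all these markers in the lower Pcdhgc3 was not tested. In RNA from many cells, fewer cells of a type and less RNA per cell cannot be told apart.

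Pcdhgc5, the last gene of the gamma cluster, was the second most abundant by mean over the libraries. It stood at 2.30 and 1.36 RPKM in P3 WT, 4.75 and 2.44 in P3 Ctrl, 3.34 and 1.70 in P3 Jmjd1aKO, 4.53 and 1.39 in P3 Jmjd1bKO, 1.34 and 1.28 in P3 DKO, 1.35 and 0.853 in P7 Ctrl, and 0.322 and 0.167 in P7 DKO. The double knockout libraries lay below the matched control libraries at both ages, but the controls were spread widely. The log2 change was -0.95 ± 0.40 in P3 DKO against P3 Ctrl (adjusted p = 0.182, limma) and -0.75 ± 0.40 in P7 DKO against P7 Ctrl (adjusted p = 0.184, limma). Neither passed the threshold. At P7 it did pass in 3 of the 12 alternative fits, with adjusted p from 0.0336 to 0.491 over all 12.

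Pcdhgc4 lies between Pcdhgc3 and Pcdhgc5 and was much lower than either, although all 3 are C-type genes. Its level was 0.140 and 0.555 RPKM in P3 WT, 0.514 and 0.241 in P3 Ctrl, 0.363 and 0.837 in P3 Jmjd1aKO, 0.353 and 1.14 in P3 Jmjd1bKO, 0.263 and 0.228 in P3 DKO, 0.141 and 0.182 in P7 Ctrl, and 0.0551 and 0.0459 in P7 DKO. Only 1 library, P3 Jmjd1bKO replicate 2, reached 1 RPKM, so Pcdhgc4 was not tested.

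**Figure D2:**
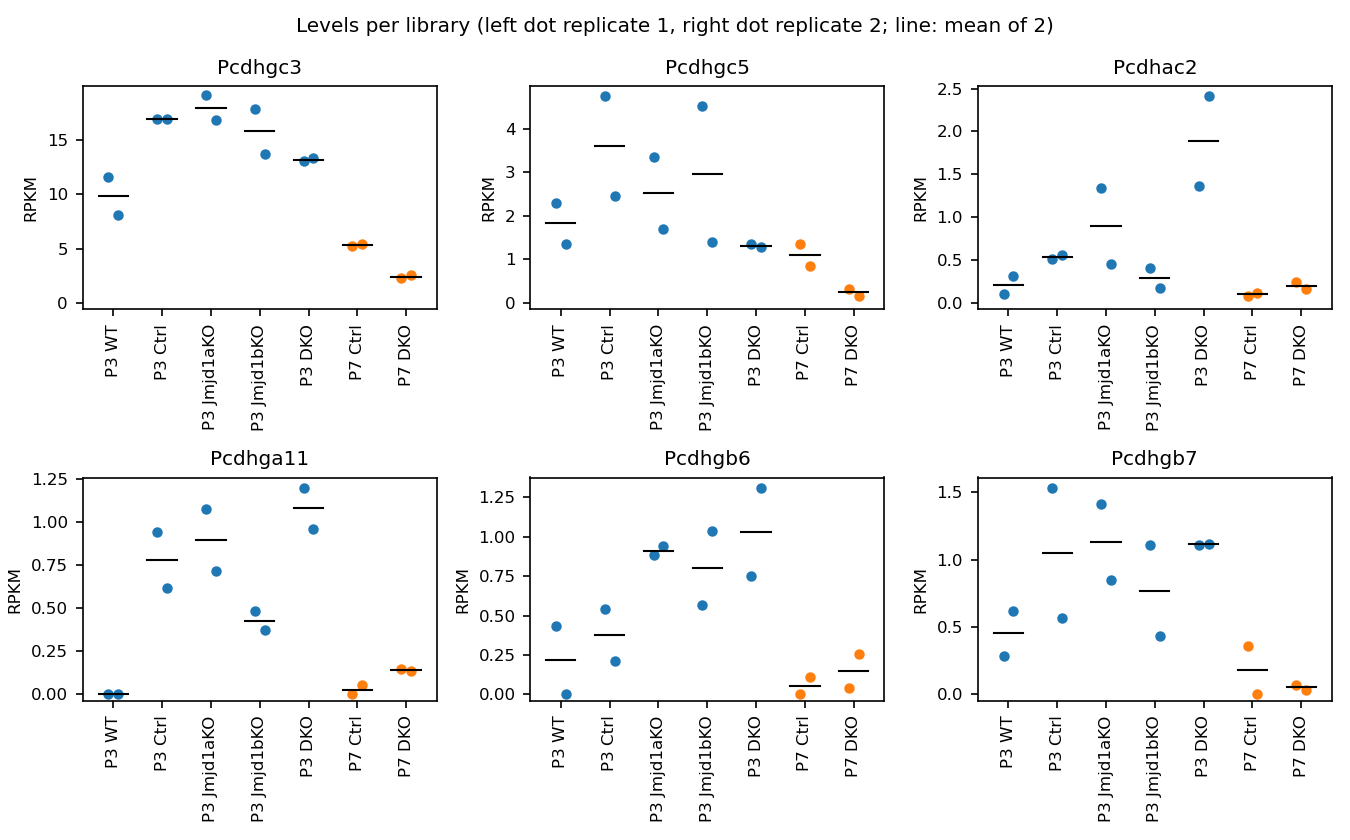
RPKM of 6 genes in each library, by group, with replicate 1 as the left dot, replicate 2 as the right dot and a line at their mean (blue for day 3, orange for day 7). Pcdhgc3 and Pcdhgc5 are lowest in P7 DKO, while Pcdhac2 is highest in P3 DKO, at 1.37 and 2.41 RPKM.

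The summed level of the gamma cluster moved with Pcdhgc3, which made up 55.7 to 68.9% of it in every library. The sum was 16.1 ± 2.46 RPKM in P3 WT, 27.4 ± 4.12 in P3 Ctrl, 30.7 ± 1.77 in P3 Jmjd1aKO, 27.2 ± 3.98 in P3 Jmjd1bKO, 22.8 ± 0.396 in P3 DKO, 8.69 ± 0.0596 in P7 Ctrl and 3.94 ± 0.304 in P7 DKO (mean ± SD, n = 2). It was therefore higher in every P3 library than in any P7 library, and lower in both P7 DKO libraries than in both P7 Ctrl libraries. The 19 gamma A and gamma B genes together made up 35.0 and 35.7% of the sum in P3 DKO, above the 26.9 and 20.2% in P3 Ctrl. The share in the single knockouts was spread between the replicates and also lay below P3 DKO, narrowly in replicate 2 of each (28.6 and 34.3% in P3 Jmjd1aKO, 24.2 and 33.5% in P3 Jmjd1bKO). At P7 it was 22.3 and 25.8% in P7 Ctrl and 28.6 and 33.9% in P7 DKO. The summed RPKM of the 19 genes overlapped at P3, at 7.88 and 8.23 in P3 DKO and 8.17 and 4.95 in P3 Ctrl. At P7 that sum was lower in the double knockout, at 1.07 and 1.41 against 1.93 and 2.25 in P7 Ctrl. A higher share thus did not go with a clearly higher sum at either age. These shares and sums were not tested.

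**Figure D3:**
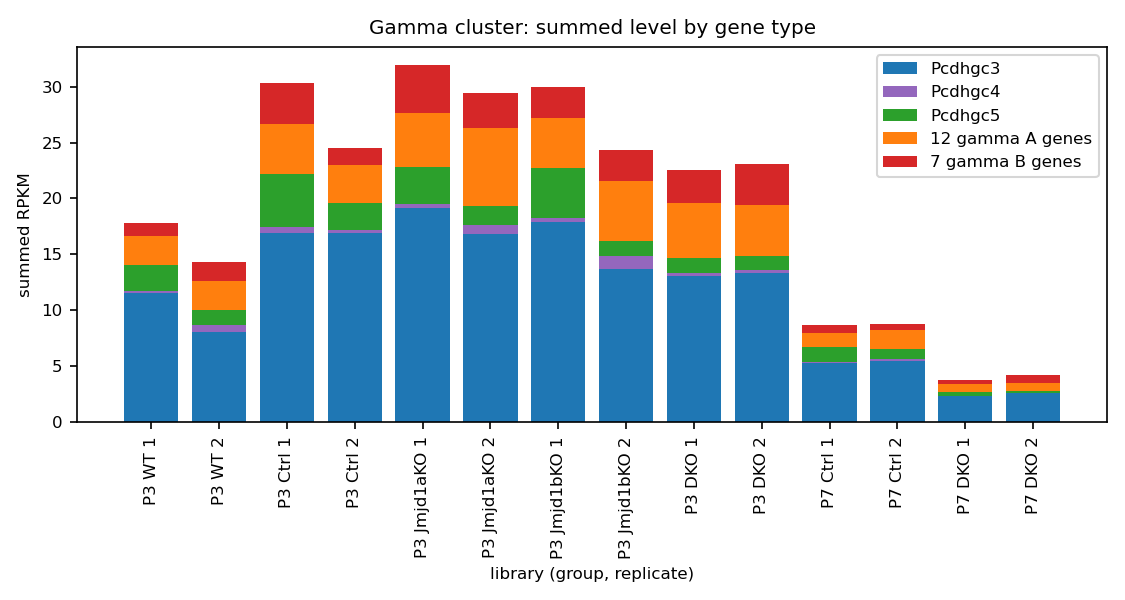
Summed RPKM of the gamma cluster in each library, stacked by Pcdhgc3, Pcdhgc4, Pcdhgc5, the 12 gamma A genes and the 7 gamma B genes. Pcdhgc3 fills 55.7 to 68.9% of every bar, and the P7 DKO bars are the shortest.

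Reads of the gamma genes cannot all be assigned to a single gene. In the annotation, exons shared with the other gamma genes make up 41.7 to 45.9% of the transcript length of each gamma gene, and those shared in the alpha cluster 48.6 to 54.9% of each matched alpha transcript. How the authors divided such reads is not given in the sources used here, so differences between members of a cluster are less certain than the cluster's total. Beta genes share no exons.

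Within the gamma A and B genes, level followed position in part at P3 and less so at P7. Pcdhga1, at the 5' end, had a mean of 0.578 RPKM over the 14 libraries. The next 12 genes, from Pcdhga2 to Pcdhga9, had means of 0.0494 to 0.225 RPKM, and the last 6, from Pcdhgb6 to Pcdhga12, had means of 0.296 to 0.711. These pooled means are dominated by P3, where the last 6 had means of 0.375 to 0.903 RPKM and the 12 before them 0.0692 to 0.294. At P7 the sets overlapped: Pcdhgb1, in the middle, had a mean of 0.120 RPKM, above 5 of the last 6 (0.0853 to 0.117), and of those 6 only Pcdhga12 was higher, at 0.370. The sets were formed after the values were seen. Pcdhga8 and Pcdhga9 were listed at 0 in all 4 libraries of day 7. Pcdhga12, the last gamma A gene and the highest by mean, stood at 0.330 and 0.817 RPKM in P3 WT, 0.976 and 1.18 in P3 Ctrl, 0.960 and 1.05 in P3 Jmjd1aKO, 1 and 0.642 in P3 Jmjd1bKO, 0.825 and 0.696 in P3 DKO, 0.236 and 0.689 in P7 Ctrl, and 0.197 and 0.356 in P7 DKO. It passed the threshold in none of the 10 comparisons, and its P7 Ctrl and P7 DKO libraries overlapped. Pcdhga10, the remaining tested gene, ranged from 0 to 1.33 RPKM and was called in none of them either.

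With both demethylases lost at day 3, none of the 8 tested protocadherins passed the threshold, and the values of Pcdhac2 and Pcdhgc5 stood farthest from the controls in opposite directions. In P3 DKO against P3 Ctrl (limma) 3 of the 8 had an unadjusted p under 0.05, and 2.18% of all tested genes were called higher and 2.29% lower. The libraries of the groups did not overlap for Pcdhac2, Pcdhgb6 and Pcdhga11, the genes that were tested only because of the P3 DKO libraries and were higher there, and for Pcdhga12, Pcdhgc3 and Pcdhgc5, which were lower. Among all tested genes with a value, 30.9% were higher and 27.9% lower without overlap. The median change was 0.10 for the 8 genes and 0.01 for all tested genes. Under quantile normalization the change of Pcdhga11 became -0.05.

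Pcdhac2, the last gene of the alpha cluster, showed the highest of those values. Its level was 0.102 and 0.313 RPKM in P3 WT, 0.517 and 0.564 in P3 Ctrl, 1.35 and 0.449 in P3 Jmjd1aKO, 0.403 and 0.175 in P3 Jmjd1bKO, 1.37 and 2.41 in P3 DKO, 0.0805 and 0.118 in P7 Ctrl, and 0.245 and 0.160 in P7 DKO. Both P3 DKO libraries exceeded every other library, by little over P3 Jmjd1aKO replicate 1. The mean was 3.49-fold that of P3 Ctrl, with a log2 change of 0.88 ± 0.25 and an adjusted p of 0.0686 (limma). Fitted with no filter, where its level in P3 DKO does not decide whether it is tested, the adjusted p was 0.0732. Over the 12 alternative fits it ran from 0.0232 to 0.370, and 1 passed the threshold. That fit, chosen after seeing the data, left out the 2 libraries rich in Sertoli transcripts, which enter this test for the spread alone.

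Against P3 Jmjd1bKO, Pcdhac2 was 6.53-fold higher in P3 DKO, with a log2 change of 1.15 ± 0.25 and an adjusted p of 0.0193 (limma). It was 1 of 2 members called higher, both of which passed the filter through P3 DKO, beside 8.63% of all tested genes called higher and 7.85% lower. Fitted with no filter, its adjusted p was 0.0235, and 7 of the 59 genes were called higher, beside 8.94% of all 24340 genes, and none lower, beside 4.43%. The call was lost without P3 DKO replicate 2 (adjusted p = 0.144) and without P3 Jmjd1bKO replicate 2 (adjusted p = 0.107), as it was when only these 4 libraries were fitted (adjusted p = 0.175). The other call was Pcdhga11, with 1.20 and 0.963 RPKM in P3 DKO and 0.482 and 0.372 in P3 Jmjd1bKO. Its log2 change was 0.54 ± 0.16 (adjusted p = 0.0429, limma; 0.0216 with no filter), and only 3 of 12 alternative fits kept it past the threshold. It was lost when any of the 4 libraries was left out, with adjusted p from 0.0509 to 0.185. In the other P3 groups Pcdhga11 stood at 0 in both P3 WT libraries, 0.942 and 0.619 RPKM in P3 Ctrl, and 1.08 and 0.715 in P3 Jmjd1aKO, so the P3 DKO libraries overlapped with those of P3 Jmjd1aKO.

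Against P3 Jmjd1aKO, none of the 8 genes passed the threshold (limma), where 0.00677% of all tested genes were called higher and 0.0271% lower, and 2 of the 8 had an unadjusted p under 0.05. Pcdhac2 differed by 0.62 ± 0.25 on the log2 scale, with an adjusted p of 0.414. In P3 Jmjd1aKO against P3 Ctrl and in P3 Jmjd1bKO against P3 Ctrl none of the 8 passed either (limma), and none had an unadjusted p under 0.05. In those comparisons 0.0135% and 0.00677% of all tested genes were called higher and 0.0203% and 0.0135% lower. The comparisons share the P3 Ctrl or the P3 DKO libraries, so their values are not independent.

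Markers of other cell types moved in both directions between P3 Ctrl and P3 DKO. The 10 markers of neurons and glia, of which 8 reached 1 RPKM somewhere, summed to 26.6 and 18.9 RPKM in P3 Ctrl and to 35.8 and 34.6 in P3 DKO, while P3 Jmjd1aKO stood at 34.5 and 34.7. The 8 stromal markers summed to 13.5 and 11.4 in P3 Ctrl and to 22.3 and 22.0 in P3 DKO. None of the neuronal and glial markers was at 0 in either group. The sum over the 6 leukocyte markers was lower in P3 DKO, at 8.05 and 6.42 against 17.5 and 12.9 in P3 Ctrl. Cd68 and Cd52 fell, while Ptprc and Adgre1 were higher in both P3 DKO libraries and Csf1r and Laptm5 overlapped. The sums over endothelial, Sertoli and Leydig markers overlapped. The Sertoli sum held Rhox5, which fell from 41.3 and 29.2 RPKM in P3 Ctrl to 13.5 and 18.8 in P3 DKO. Inha, Inhbb, Wt1, Gata4 and Cldn11 were higher in P3 DKO, and Amh and Sox9 overlapped. Their part in the Pcdhac2 values was not tested.

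**Figure D4:**
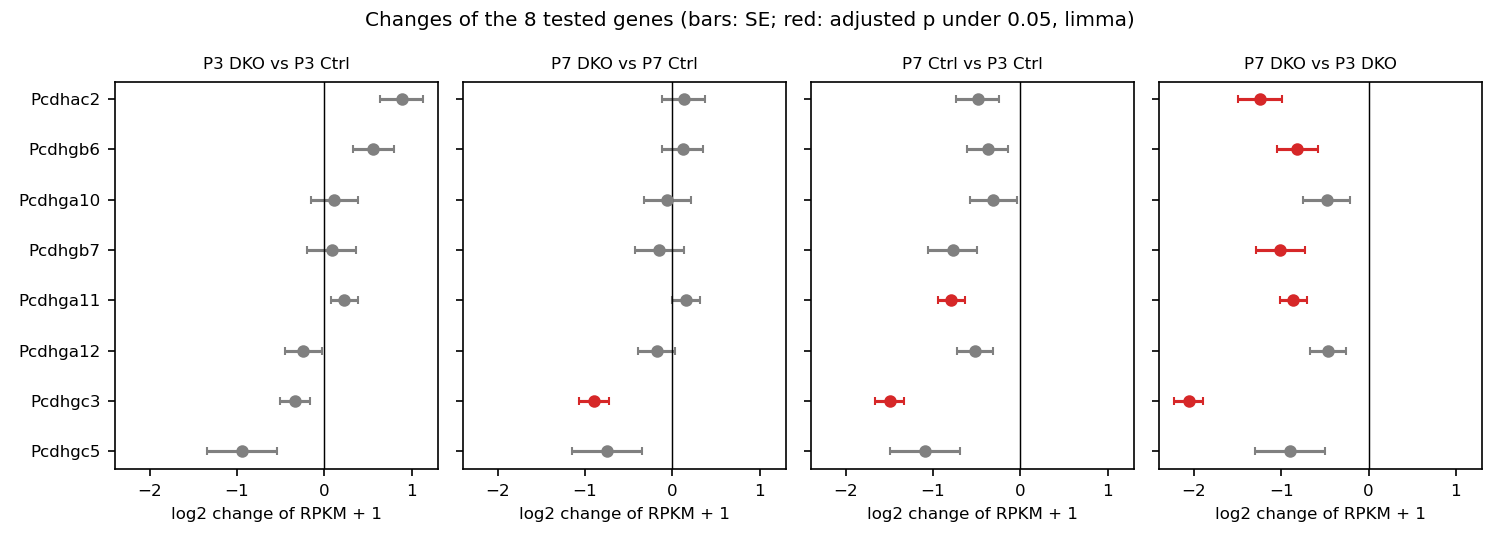
Change of log2(RPKM + 1) for the 8 tested genes in 4 comparisons, with bars for the SE and red for an adjusted p under 0.05 in limma. Pcdhgc3 is the only gene called in P7 DKO against P7 Ctrl (-0.90), no gene is called in P3 DKO against P3 Ctrl, and all 8 points lie below 0 in both age comparisons. All of the 8 but Pcdhgc3 and Pcdhgc5 reached 1 RPKM only in P3 libraries, so the falls with age are in part set by the filter.

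The rest of the alpha cluster was close to silent. Pcdhac1, the other C-type alpha gene, was at 0.0105 and 0.0133 RPKM in P3 Ctrl, 0.0588 and 0 in P3 Jmjd1aKO, 0 and 0.0420 in P3 Jmjd1bKO, and 0.0629 and 0.197 in P3 DKO, and it was listed at 0 in P3 WT and in all 4 libraries of day 7. Pcdha5 was at 0 and 0.0141 RPKM in P3 Ctrl, at 0.0204 and 0 in P3 Jmjd1aKO, and at 0.0281 and 0.0394 in P3 DKO, and at 0 in every other library. The 14 alpha genes other than Pcdhac2 summed to 0.165 and 0.274 RPKM in P3 DKO, to 0 to 0.0984 in the other P3 libraries and to 0 in all P7 libraries. The P3 DKO sums were the highest. These were also the libraries with the greatest estimated depth, and the part of depth in the values was not tested.

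Across the 51 genes below the filter, 38 had a value above 0 in P3 DKO or P3 Ctrl. Of these 38, 14 (36.8%) were higher in both P3 DKO libraries than in both P3 Ctrl libraries and 1 (2.63%) was lower. Among all genes below the filter with a value, 44.2% were higher and 5.94% lower in the same way, so the share for the protocadherins was not above the background. The 14 comprised 4 alpha, 7 beta and 3 gamma genes. Fitted with no filter, 5 of the 59 genes were called higher in P3 DKO (limma), against 4.40% of all 24340 genes, and none lower, against 2.11%.

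Those 5, named after their values were seen, were Pcdha8, Pcdha12, Pcdhb1, Pcdhb2 and Pcdhga4. Pcdhb1 had 0.0860 and 0.0549 RPKM in P3 DKO and 0.0199 and 0 in P3 Ctrl, which correspond to about 9.9 and 7.0 fragments against 2.0 and 0. Pcdhb2 had 0.0528 and 0.0756 RPKM in P3 DKO and 0.0175 and 0.00794 in P3 Ctrl. Their log2 changes were 0.08 ± 0.01 (adjusted p = 0.0171) and 0.07 ± 0.01 (adjusted p = 0.0101) in limma, differences that rest on a handful of fragments. Fragment numbers of the beta genes are rough, since 54.3% of their 105 values above 0 lay within 0.2 of a whole number, where an even spread gives 40%. In the same fit both were also called higher in P3 DKO than in P3 Jmjd1aKO, beside 0.624% of all genes called higher and 0.074% lower. Both were listed at 0 in all 4 P7 libraries, and their double knockout change was called lower at P7 than at P3, beside 7.42% of all genes called lower and 6.37% higher. With 0 throughout at P7, that difference is the P3 change with its sign reversed. It therefore gives no separate evidence that the effect differs with age.

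The beta genes fell into a 5' set and a 3' set with different library patterns, a division made after the values were seen. Pcdhb1 to Pcdhb4 summed to 0.193 and 0.180 RPKM in P3 DKO, to 0.0501 and 0.00794 in P3 Ctrl, to 0.0424 and 0.0130 in P3 Jmjd1aKO, to 0.00802 and 0.0286 in P3 Jmjd1bKO, and to 0 in P3 WT and at P7. This sum was higher in both P3 DKO libraries than in any other. Among the single genes Pcdhb4 overlapped, at 0.00551 and 0.0151 RPKM in P3 DKO and 0.00639 and 0 in P3 Ctrl. The sum of Pcdhb5 to Pcdhb22 was 0.682 RPKM in replicate 2 of P3 Jmjd1aKO and 0.728 in replicate 2 of P3 Jmjd1bKO, against 0.0218 to 0.181 in the other 12 libraries. Those 2 libraries are the ones rich in Sertoli and stromal transcripts, and 17 of the 18 genes were above 0 in each of them. Amh, the anti-Mullerian hormone made by Sertoli cells, stood at 108 and 150 RPKM there and at 2.30 to 22.6 elsewhere, and its part in the beta values was not tested.

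The 3 beta genes with the highest means show the latter pattern in different degrees. Pcdhb5 was at 0.0401 and 0 RPKM in P3 WT, 0.0202 and 0.0245 in P3 Ctrl, 0.0392 and 0.0804 in P3 Jmjd1aKO, 0.0248 and 0.0822 in P3 Jmjd1bKO, 0.0466 and 0.0265 in P3 DKO, 0.0504 and 0.0109 in P7 Ctrl, and 0.0599 and 0.05 in P7 DKO. It was highest in the 2 Sertoli-rich libraries. Pcdhb20, also highest there, was at 0.0209 and 0 RPKM in P3 WT, 0.00703 and 0.0256 in P3 Ctrl, 0 and 0.0629 in P3 Jmjd1aKO, 0.00646 and 0.0750 in P3 Jmjd1bKO, 0 and 0.0111 in P3 DKO, 0.0526 and 0 in P7 Ctrl, and 0.0375 and 0.0130 in P7 DKO. Pcdhb22 was at 0.00759 and 0.0351 RPKM in P3 Jmjd1aKO, 0.00720 and 0.119 in P3 Jmjd1bKO, 0.0203 and 0.0370 in P3 DKO, 0.0279 and 0 in P7 DKO, and 0 in P3 WT, P3 Ctrl and P7 Ctrl. Its value in P3 Jmjd1aKO replicate 2 thus lay below that of P3 DKO replicate 2. The whole cluster had about 79.1 and 81.7 estimated fragments in these libraries, 41.9 and 58.1 in P3 DKO and 1.90 to 23.7 in the rest.

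**Figure D5:**
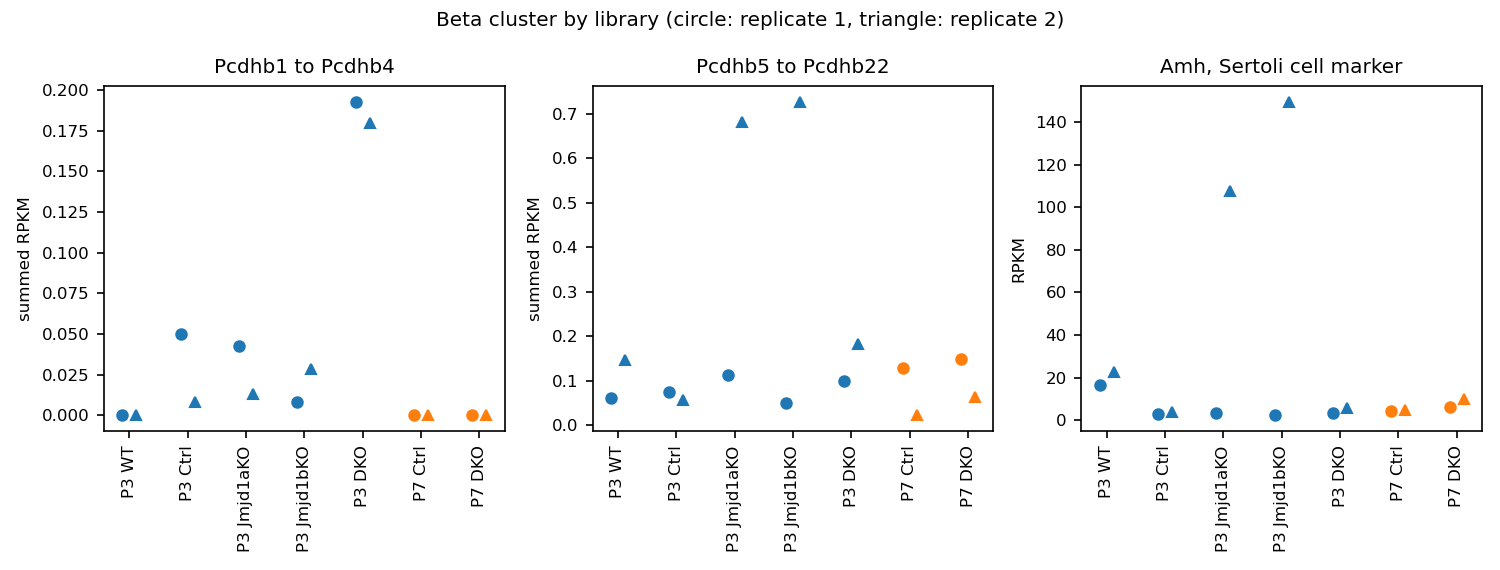
Summed RPKM of Pcdhb1 to Pcdhb4 (left) and of Pcdhb5 to Pcdhb22 (middle), and RPKM of the Sertoli cell marker Amh (right), in each library (circle for replicate 1, triangle for replicate 2, blue for day 3, orange for day 7). The left sum is highest in both P3 DKO libraries (0.193 and 0.180), while the middle sum and Amh are highest in replicate 2 of P3 Jmjd1aKO and P3 Jmjd1bKO.

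Between day 3 and day 7 Pcdhgc3 fell in the controls and in the double knockout, and the calls for other members depended on single libraries or on the normalization. In P7 Ctrl against P3 Ctrl, 2 of the 8 tested genes fell (limma), beside 13.4% of all tested genes called lower and 9.94% called higher. One of them, Pcdhga11, passed the filter only through P3 libraries. Fitted with no filter, 2 of the 59 genes were called lower, beside 6.51% of all 24340 genes, and none higher, beside 4.65%. Pcdhgc3 fell 3.17-fold, with a log2 change of -1.50 ± 0.17 and an adjusted p of 0.00151, and the call held in all 12 alternative fits. Pcdhga11 had 0.942 and 0.619 RPKM in P3 Ctrl and 0 and 0.0529 in P7 Ctrl, a log2 change of -0.79 ± 0.16 (adjusted p = 0.00933, limma). That call was lost without P3 Ctrl replicate 1 (adjusted p = 0.0757), without P7 Ctrl replicate 1 (0.0762) and without P7 Ctrl replicate 2 (0.0620). Both libraries of P7 Ctrl lay below both of P3 Ctrl for all 8 tested genes, a pattern shown by 38.8% of all tested genes with a value, while 35.7% lay above. Below the filter 9 of the 31 genes with a value (29.0%) were lower and none higher in this way, against 47.4% and 6.33% of all such genes. The median change of the 8 tested genes was -0.65, against -0.01 for all tested genes. All of the 8 but Pcdhgc3 and Pcdhgc5 reached 1 RPKM only in P3 libraries. This median and the lower P7 Ctrl values of all 8 are therefore in part set by the filter.

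The same age comparison in the double knockout gave more calls, in this family and overall. In P7 DKO against P3 DKO, 5 of the 8 tested genes fell (limma), beside 30.5% of all tested genes called lower and 27.8% called higher. All of them but Pcdhgc3 passed the filter only through P3 libraries, so their falls are in part set by it. Fitted with no filter, 16 of the 59 genes were called lower, beside 26.8% of all 24340 genes, and none higher, beside 16.4%. Pcdhgc3 fell 5.47-fold, with a log2 change of -2.06 ± 0.17 (adjusted p = 4.10e-05, limma). Pcdhac2 fell 9.35-fold, by 1.24 ± 0.25 on the log2 scale (adjusted p = 0.00203, limma), from the P3 DKO values given above to 0.245 and 0.160 RPKM. Pcdhga11 fell 7.51-fold, by 0.86 ± 0.16 on the log2 scale (adjusted p = 0.00123, limma), from 1.20 and 0.963 to 0.150 and 0.138 RPKM.

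The other calls in this comparison were gamma B genes next to Pcdhga10 and Pcdhga11. Both libraries of P7 DKO lay below both of P3 DKO for all 8 tested genes, as for 41.5% of all tested genes with a value, while 38.8% lay above. All of the 8 but Pcdhgc3 and Pcdhgc5 reached 1 RPKM only in P3 libraries, so this is in part set by the filter. Pcdhgb6 stood at 0.434 and 0 RPKM in P3 WT, 0.539 and 0.215 in P3 Ctrl, 0.885 and 0.939 in P3 Jmjd1aKO, 0.567 and 1.03 in P3 Jmjd1bKO, 0.753 and 1.31 in P3 DKO, 0 and 0.111 in P7 Ctrl, and 0.0435 and 0.254 in P7 DKO. It fell by 0.81 ± 0.23 on the log2 scale from P3 DKO to P7 DKO (adjusted p = 0.0134, limma), a call lost without P3 DKO replicate 2 (0.102) and without P7 DKO replicate 1 (0.0788). Pcdhgb7 stood at 0.288 and 0.617 RPKM in P3 WT, 1.53 and 0.570 in P3 Ctrl, 1.41 and 0.846 in P3 Jmjd1aKO, 1.11 and 0.434 in P3 Jmjd1bKO, 1.11 and 1.12 in P3 DKO, 0.362 and 0 in P7 Ctrl, and 0.0712 and 0.0315 in P7 DKO. It fell by 1.01 ± 0.28 on the log2 scale (adjusted p = 0.0114, limma), a call lost without P7 DKO replicate 2 (0.0526).

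Quantile normalization, which gives every library the same distribution of values, ended 4 of these 5 calls. Under it Pcdhgc3 stayed past the threshold, while the log2 change became -0.44 for Pcdhac2 (adjusted p = 0.111, limma), -0.04 for Pcdhga11 (0.828), -0.05 for Pcdhgb6 (0.902) and -0.21 for Pcdhgb7 (0.527). Below the filter, 24 of the 36 genes with a value (66.7%) were lower in both P7 DKO libraries than in both P3 DKO libraries, and 2 (5.56%) were higher, against 61.1% and 5.08% of all such genes, and the P7 libraries were the shallower ones. The sum over endothelial markers was lower at the later age too, from 28.9 and 17.7 RPKM in P3 Ctrl to 8.60 and 8.55 in P7 Ctrl. Of these markers Kdr alone was higher in both P7 Ctrl libraries. The sum went from 20.5 and 21.6 RPKM in P3 DKO to the P7 DKO sums given above. The stromal sum rose in the controls, from 13.5 and 11.4 RPKM to 19.1 and 19.1, through Col1a1 and Pdgfra. Of the other stromal markers, Col1a2, Col3a1, Dcn, Acta2 and Myh11 were lower in P7 Ctrl and Lum overlapped. In the double knockout the stromal sum fell from 22.3 and 22.0 to 6.84 and 6.19. The sum over neuronal and glial markers went from 35.8 and 34.6 RPKM in P3 DKO to 11.8 and 18.8 in P7 DKO. Their part in the age differences was not tested.

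The effect of the double knockout was not shown to differ between the ages for any tested member. For the change in DKO against Ctrl at P7 minus that at P3, none of the 8 genes passed the threshold (limma), 1 had an unadjusted p under 0.05, and 12.2% of all tested genes were called higher and 10.7% lower. The difference was -0.56 ± 0.24 for Pcdhgc3 (adjusted p = 0.118), which was called at P7 and stood at -0.34 ± 0.17 at P3 (adjusted p = 0.255). It was -0.75 ± 0.35 for Pcdhac2 (adjusted p = 0.146). Fitted on the 8 libraries of these 4 groups alone, the difference for Pcdhgc3 had an adjusted p of 0.0394.

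The day 3 controls with and without the Cre were compared last. In P3 Ctrl against P3 WT all 8 tested genes had a positive change, with a median of 0.44 against 0.02 for all tested genes. All but Pcdhgc3 and Pcdhgc5 passed the filter only through P3 libraries that carry the Cre. For these, being lower in P3 WT is in part set by the filter. None of the 8 passed the threshold (limma) and 2 had an unadjusted p under 0.05, beside 0.406% of all tested genes called higher and 0.298% lower. The nearest were Pcdhga11, listed at 0 in both P3 WT libraries (0.83 ± 0.16, adjusted p = 0.0521), and Pcdhgc3 (0.75 ± 0.17, adjusted p = 0.0644). For 6 of the 8 genes the libraries did not overlap, with P3 Ctrl higher in each, as for 34.1% of all tested genes with a value, while 29.6% were lower. Below the filter this held for 7 of 31 genes with a value (22.6%) and the reverse for 1 (3.23%), against 43.5% and 4.66% of all such genes. Each was called under some alternatives, Pcdhga11 in 6 and Pcdhgc3 in 2 of 12. The groups differ in the Cre, in 1 allele of each demethylase and in estimated depth, 13.5 and 14.9 M fragments in P3 WT against 38.6 and 43.4 M in P3 Ctrl. The endothelial markers summed to 8.73 and 12 RPKM in P3 WT and to 28.9 and 17.7 in P3 Ctrl, and those of neurons and glia to 15.7 and 14.7 and to 26.6 and 18.9. The leukocyte sum was also lower in P3 WT, at 9.88 and 10 RPKM, through Cd68 and Cd52. Ptprc, Csf1r and Adgre1 were higher in P3 WT and Laptm5 overlapped. The Sertoli sum was higher, at 72.7 and 89.1 against 59.0 and 46.5 in P3 Ctrl. Within it Rhox5 was lower, at 19.3 and 17.6 against 41.3 and 29.2, and Amh was higher, at 16.6 and 22.6 against 3.09 and 3.84. Inha, Inhbb, Gata4 and Cldn11 were also higher, and Sox9 and Wt1 overlapped. Their part in these values was not tested.

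Genes known to act on the clusters were called about as often as all genes in P7 DKO, and in both directions. In P3 DKO their share was larger than that of all genes, but it rested on few genes. These included the targeted ones, and the count depended on single libraries. Of 28 regulators listed (CTCF and cohesin, H3K9 and DNA methyltransferases, their cofactors and readers), 27 were tested, and in P3 DKO 1 rose and 4 fell (limma), the targeted Kdm3a and Kdm3b among them, with a median change of -0.14, beside 2.18% of all tested genes called higher and 2.29% lower. Uhrf1, which recruits the maintenance DNA methyltransferase, fell from 182 and 226 RPKM in P3 Ctrl to 123 and 110 in P3 DKO (-0.80 ± 0.17, adjusted p = 0.0358). In P7 DKO 4 rose and 6 fell, again with Kdm3a and Kdm3b among them, and the median change was -0.01, beside 17.4% of all tested genes called higher and 16.1% lower. Lrif1, a heterochromatin factor that binds SMCHD1 and HP1, rose from 7.13 and 6.08 RPKM in P7 Ctrl to 12.7 and 22.3 in P7 DKO (1.23 ± 0.24, adjusted p = 0.00396), and Uhrf1 was called lower there as well (-0.50 ± 0.17, adjusted p = 0.0462).

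Some regulators are named here after their values were seen. Ehmt2, the H3K9 methyltransferase G9a, rose in P3 DKO from 109 and 110 RPKM to 162 and 173 (0.61 ± 0.13, adjusted p = 0.0327, limma). Ctcf, whose protein binds protocadherin promoters, rose in P7 DKO from 21.1 and 21.6 RPKM to 33.9 and 31.5 (0.59 ± 0.13, adjusted p = 0.00594, limma). The H3K9 methyltransferase gene Setdb1 and Smchd1, both known to repress clustered protocadherins, passed in neither comparison, with adjusted p of 0.967 and 0.717 at P3 and of 0.837 and 0.144 at P7. The P3 counts depended on single libraries: leaving out any 1 of the 4 left 1 or 2 regulators called, and without the 2 libraries rich in Sertoli transcripts 8 were called. At P7 the number called fell to 5 without P7 Ctrl replicate 1.

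Genes beside the clusters on chromosome 18 gave a reference for the region. Of 14 neighbours listed, 13 were tested, and none was called in P3 DKO against P3 Ctrl (limma), with a median change of -0.16. In P7 DKO against P7 Ctrl 2 rose and 2 fell, with a median change of 0.02, a share close to the 17.4% of all tested genes called higher and 16.1% called lower. Fchsd1, on the far side of the gamma cluster at 37957431 to 37969814, fell from 13.5 and 14.8 RPKM to 5.24 and 4.79 (-1.33 ± 0.21, adjusted p = 0.00126, limma). Slc25a2, at 37637378 to 37638723 between the beta and gamma clusters, rose from 0.441 and 0.127 RPKM to 1.68 and 1.20 (0.93 ± 0.31, adjusted p = 0.0407, limma). Hars2 rose (0.73 ± 0.16) and Tmco6 fell (-0.72 ± 0.15) on the other side of the alpha cluster. Without P7 Ctrl replicate 1 the number of neighbours called was 2, both lower.

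The non-clustered protocadherins, single genes elsewhere in the genome, were mostly too low to test. Of 12 listed, Pcdh1 and Pcdh12 passed the filter, and neither was called in P3 DKO (limma). Pcdh1 fell from 5.54 and 6.02 RPKM in P7 Ctrl to 3.99 and 1.35 in P7 DKO (-0.98 ± 0.34, adjusted p = 0.0472, limma), and none of the list was called lower in 9 of the 12 alternative fits. Among 14 genes of protocadherin signalling and cell adhesion, 1 fell in P3 DKO (limma), with a median change of -0.12, and in P7 DKO 1 rose and 5 fell, with a median of -0.27, beside 17.4% of all tested genes called higher and 16.1% lower. The falls at P7 included Ret, the receptor kinase of spermatogonial stem cells that also binds protocadherins, from 104 and 110 RPKM to 45.2 and 13.9 (-2.04 ± 0.41, adjusted p = 0.00438, limma). They also included the cadherin genes Cdh3 (-1.88 ± 0.51, adjusted p = 0.0177) and Cdh1 (-1.03 ± 0.35, adjusted p = 0.0481), and the kinase gene Fyn (-0.99 ± 0.22, adjusted p = 0.00782). Leaving out either P7 Ctrl library left 3 genes of this list called.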

How the data were processed

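The deposited values are RPKM per gene symbol, made by the authors before deposit. TopHat2 2.1.1, Cufflinks 2.1.1 and mm10 stand in the submitters' processing notes, while the role of each tool, the annotation and the handling of reads in shared exons are not given in the sources used here. Libraries were made with a stranded mRNA kit, per the labels. Values were taken as log2(RPKM + 1) without rescaling. limma 3.58.1 in R 4.3.3 (trended eBayes) was fitted to 14772 genes with a coefficient for each of the 7 groups. Tests were two-sided, with Benjamini-Hochberg adjustment over all genes in each of 10 comparisons and a threshold of 0.05, and the fit was tested on simulated data. The log2(RPKM + 1) scale understates changes of low genes.

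The files analysed here hold no counts. Depth was estimated from RPKM steps of single-transcript genes of 800 to 8000 nucleotides, 3471 in all, of which each library used those with low values. Per library, 69.4 to 79.9% of them lay within 0.2 of a whole fragment number (40% if spread evenly), so fragment numbers are approximate. Among the beta genes the share was 54.3% of 105 values. Coordinates are from RefSeq on GRCm38, and shared exons from GENCODE M21.

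Values in every library are given for genes called in any comparison, the 3 highest by mean in each cluster and the C-type genes. From each list of other genes, up to 4 called in DKO are named. Members, lists and markers were chosen with earlier results of these data known. Alternatives were a pseudocount of 0.1, no filter, median-centring, quantile normalization, a replicate block, fits of the compared groups alone and leaving out each library. No filter with a pseudocount of 0.1, and leaving out the 2 libraries rich in Sertoli transcripts, were added after seeing the data.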

Additional observations from a re-analysis of the deposited data

Results flagged for a closer look

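Pcdhga2 was singled out because its libraries moved in opposite directions at the 2 ages. At P3 it stood at 0.295 and 0.429 RPKM in DKO and at 0.239 and 0.0996 in Ctrl, a difference of means of 0.192 RPKM. At P7 it stood at 0.0237 and 0 RPKM in DKO and at 0.0598 and 0.0711 in Ctrl. Every DKO library was thus above the controls at P3 and below them at P7. Pcdhga2 did not pass the filter. Fitted without the filter, the difference between the ages was -0.30 ± 0.11 on the log2 scale, with an adjusted p of 0.137 in limma.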

How the results depend on the processing

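For the called changes of single protocadherins and a chosen set of uncalled ones, all 248 values under alternative settings kept the direction of the main fit. Of these 248, 207 stayed on the same side of the threshold, 18 moved past it and 23 fell short of it. Changes outside this set were not counted. Among those, Pcdhga11 in P3 DKO against P3 Ctrl changed sign under quantile normalization, as given above. In P7 DKO against P7 Ctrl the 1 called gene became 2 with a pseudocount of 0.1, with quantile normalization, with the replicate block and with the compared libraries alone, and 3 with no filter and a pseudocount of 0.1. In P3 DKO against P3 Ctrl the 0 called became 5 with no filter, 4 with no filter and a pseudocount of 0.1, and 1 without the 2 libraries rich in Sertoli transcripts. In P3 Ctrl against P3 WT the 0 called became 1 with a pseudocount of 0.1, with no filter and with both, and 2 with the replicate block and without the Sertoli-rich libraries, and ranged from 0 to 1 when a library was left out.

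In P3 DKO against P3 Jmjd1aKO the 0 called became 2 with no filter at either pseudocount. In P3 DKO against P3 Jmjd1bKO the 2 called became 7 with no filter at either pseudocount, 1 with a pseudocount of 0.1 alone, with median-centring, with quantile normalization and without the Sertoli-rich libraries, 0 with the compared libraries alone, and 0 to 1 when a library was left out. In P7 Ctrl against P3 Ctrl the 2 called became 4 with the replicate block and without the Sertoli-rich libraries, and 1 to 3 when a library was left out. In P7 DKO against P3 DKO the 5 called became 16 with no filter, 17 with no filter and a pseudocount of 0.1, 8 with the compared libraries alone and 1 with quantile normalization. For the difference between the DKO changes the 0 called became 2 with no filter at either pseudocount and 1 with the compared libraries alone. The causes were not tested. Scaling to library medians moved the gamma sum from 22.8 to 22.2 RPKM in P3 DKO and from 8.69 to 8.62 in P7 Ctrl.

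The main fit did not pair samples by replicate number. Over 21 pairs of groups the correlation of replicate differences ran from -0.130 to 0.581 (median 0.0675), with 7 above 0.1. Some groups thus shared part of the difference between their replicates, and its source was not tested. With groups of 2, leaving out a library leaves a lone library that is assumed to vary like the other groups. Beta and most alpha values rest on a few fragments, which limits the precision of any difference between them.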
